A study of Mus musculus with 17 samples.

Results

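The genes of the amyloid precursor family and of the enzymes that process or degrade its products were examined in bulk RNA sequencing of mouse prefrontal cortex. The 9 genes were App, Aplp1, Aplp2, Bace1, Psen2, Ncstn, Adam10, Ide and Mme, taken by symbol from a table of 56953 genes, and all 9 passed the filter on low counts that left 23062 genes for testing. The libraries came from 5 WT, 6 hTau and 6 CgA-KO/hTau mice, all on a B6C3F1/J background, kept on regular chow and 8 months old. hTau mice were of the PS19 line, in which the Prnp promoter drives human Tau (1N4R) with the P301S mutation, and that promoter is active in neurons and other cells. CgA-KO/hTau mice carried the same transgene and lacked Chga, the gene of chromogranin A, in the whole body from conception, through a knockout first made on a 129/SvJ and C57BL/6 background. A CgA-KO group without the transgene was not analysed here, so an effect of Chga loss in the absence of human Tau could not be estimated. The labels give the libraries of a genotype as separate samples without saying more of their origin, and p-values measure the spread between these samples.

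App encodes the amyloid precursor protein, a transmembrane protein of neurons, and Aplp1 and Aplp2 encode its relatives, which lack the amyloid-beta sequence. In the non-amyloidogenic route the ectodomain is shed by the metalloprotease that Adam10 encodes, and in the amyloidogenic route it is cut by the beta-secretase that Bace1 encodes. The stub left in the membrane is then cut by gamma-secretase, a complex in which Psen2 encodes one of the alternative catalytic subunits and Ncstn encodes nicastrin, while Ide (insulin-degrading enzyme) and Mme (neprilysin) encode proteases that break down amyloid-beta. The comparisons asked whether transcripts of these genes differed with the Tau transgene and with the loss of Chga.

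Total counts ran from 8838334 to 227651681 a library, and the 9 genes were covered by 70 counts (Psen2 in WT replicate 4) to 329712 counts (App). Chga was at 152 to 180.1 CPM (the usual depth-scaled count, here over the TMM-normalized library size) in the WT and hTau libraries and at 0 in all 6 CgA-KO/hTau libraries. Replicates 1 to 3 of every genotype had the Y-linked gene Ddx3y above 1 CPM, the others below, and the labels give no sex beside a library. Xist, which is expressed in females, was at 276 to 621 CPM in the libraries without Ddx3y and at most 0.281 CPM in those with it. The paper states that each group held males and females, so the Ddx3y classes go with sex. CgA-KO/hTau replicates 1 to 3 stood apart from the other libraries. Mitochondrial genes took 13.8% to 18.2% of their counts, against 2.56% to 10.9% in the other 14 libraries. Their summed level of 6 oligodendrocyte markers was 2513 to 2943 CPM, against 1507 to 1608 CPM in CgA-KO/hTau replicates 4 to 6 and 1094 to 1796 CPM in WT and hTau, and all 6 of those markers were above 1 CPM in every library. The 6 markers of cortical excitatory neurons were above 1 CPM in every library too. Markers of striatal projection neurons, cells that prefrontal cortex should hardly hold, summed to 1070 to 3094 CPM in WT, 151 to 207 CPM in hTau and 186 to 1712 CPM in CgA-KO/hTau, which is taken up beside Mme. The 5 markers of choroid plexus summed to 1091 CPM in WT replicate 5 and to 3.54 to 17.7 CPM in the other libraries.

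The windows around the starts of App, Aplp1 and Aplp2 are shown because these 3 genes fell together in part of the CgA-KO/hTau libraries. The fall was not particular to them. Within the libraries with Ddx3y, Psen2 (log2 fold change -0.46) and Ncstn (-0.39) fell more than Aplp1 (-0.22) in CgA-KO/hTau against hTau. There 31.1% of all genes had an edgeR adjusted p under 0.05. They span 250 bases before to 50 bases after the annotated start, come from RefSeq on GRCm38.p6 and are written 5′ to 3′ along the minus strand, on which all 3 genes lie. Capitals mark the GC box GGGCGG, searched on both strands.
App, chr16:85173658-85173957: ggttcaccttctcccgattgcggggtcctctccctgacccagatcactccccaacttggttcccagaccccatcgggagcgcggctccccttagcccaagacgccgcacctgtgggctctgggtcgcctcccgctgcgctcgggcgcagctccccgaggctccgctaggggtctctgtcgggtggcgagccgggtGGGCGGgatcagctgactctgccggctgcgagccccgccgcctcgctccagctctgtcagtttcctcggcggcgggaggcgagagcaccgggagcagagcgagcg
Aplp1, chr7:30445533-30445832: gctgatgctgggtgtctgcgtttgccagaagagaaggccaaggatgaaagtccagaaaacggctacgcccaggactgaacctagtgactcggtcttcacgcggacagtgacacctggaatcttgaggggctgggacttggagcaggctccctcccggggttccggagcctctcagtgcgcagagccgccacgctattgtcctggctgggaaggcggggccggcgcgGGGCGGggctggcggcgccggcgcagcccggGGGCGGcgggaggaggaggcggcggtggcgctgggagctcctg
Aplp2, chr9:31211799-31212098: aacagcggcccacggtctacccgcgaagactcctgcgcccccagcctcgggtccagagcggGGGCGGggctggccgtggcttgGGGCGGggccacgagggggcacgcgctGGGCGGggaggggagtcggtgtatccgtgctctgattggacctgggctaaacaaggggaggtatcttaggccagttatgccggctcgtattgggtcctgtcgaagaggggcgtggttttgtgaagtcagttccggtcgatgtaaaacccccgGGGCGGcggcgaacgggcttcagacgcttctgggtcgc
The App window held 1 GC box, 30 CpG sites and 71.0% G and C, the Aplp1 window 2 GC boxes and 26 CpG sites, and the Aplp2 window 4 GC boxes and 29 CpG sites. Over the 32817 windows of that length in the same table, the median was 7 CpG sites, 35.6% held a GC box and 13.6% held the TATA box letters TATAAA on either strand. None of the 3 windows held TATAAA. These letter matches describe the windows and do not show binding.

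At equal transcript length the precursor family was far above its processing enzymes. In WT the level per kilobase of the principal transcript (GENCODE M21) was 498 ± 37.0 CPM per kb for App (SD, n = 5), 454 ± 41.9 for Aplp1 and 170.0 ± 15.4 for Aplp2. Adam10 followed at 29.1 ± 2.22 CPM per kb, then Ncstn at 18.0 ± 2.23 and Bace1 at 16.9 ± 6.33. Ide stood at 10.0 ± 0.364 CPM per kb, Psen2 at 4.83 ± 0.754 and Mme at 3.65 ± 1.42. App and Aplp1 were within their spread of each other, as were Ncstn and Bace1, and Psen2 and Mme. Of the family's summed level per kb, App made up 44.4% ± 1.65 in WT (SD, n = 5), 45.8% ± 1.98 in hTau (SD, n = 6) and 42.4% ± 4.98 in CgA-KO/hTau (SD, n = 6).

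**Figure D1:**
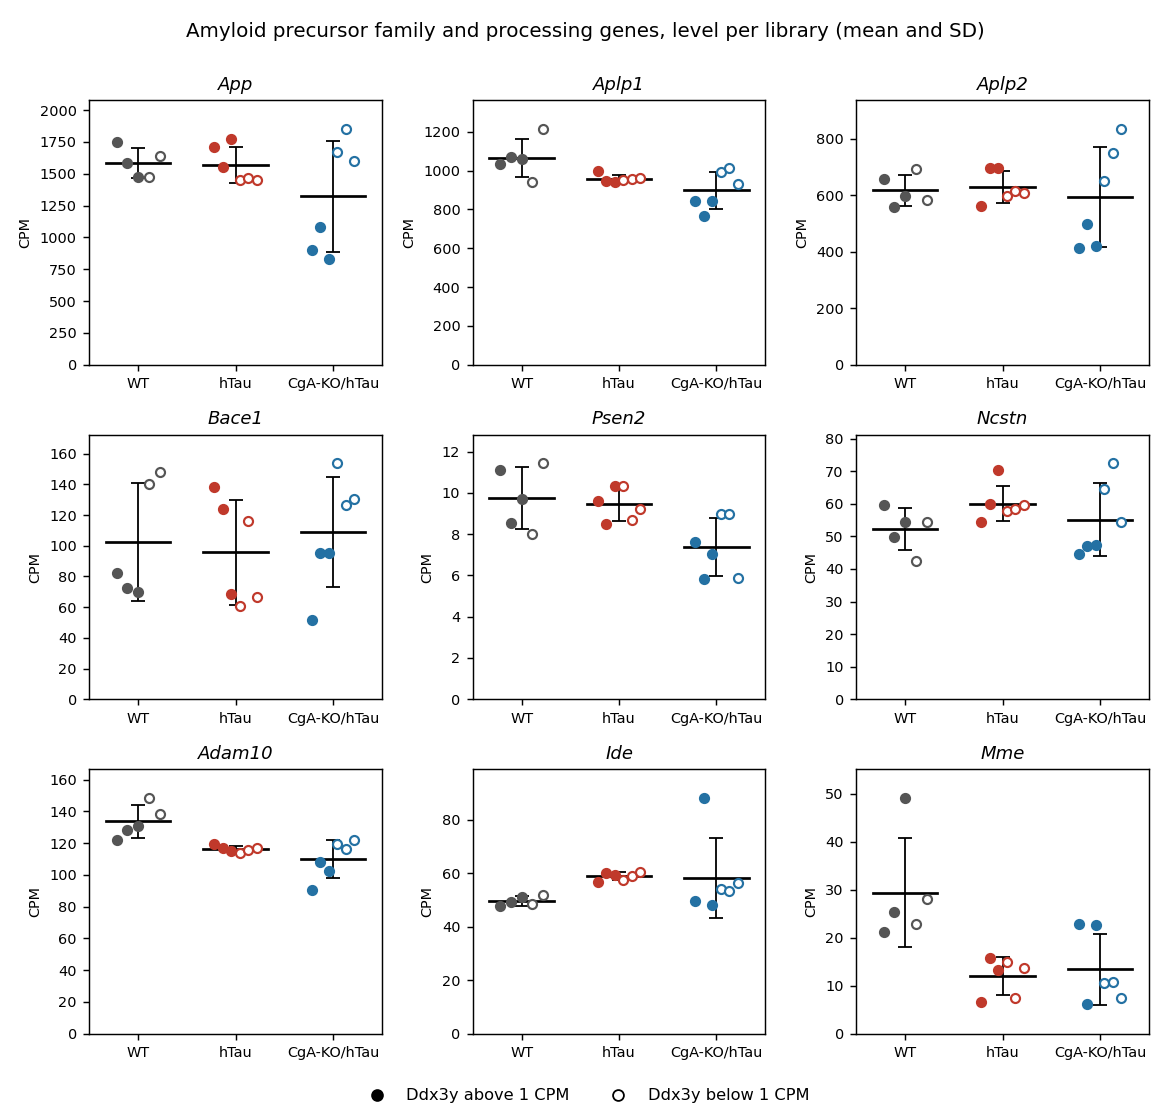
Level of the 9 genes in each of the 17 libraries, in CPM on an axis from 0, by genotype, with the group mean (long bar) and SD (whiskers). Filled points are libraries with Ddx3y above 1 CPM. In CgA-KO/hTau the filled points of App (828 to 1085 CPM) lie below all other libraries (1449 CPM or more), and the WT points of Mme (21.2 to 49.1 CPM) lie above all hTau points.

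In WT against hTau, 1 of the 9 genes changed and 8 did not pass the test. Mme was higher in WT, and WT and hTau libraries were free of overlap for Mme, Adam10 (higher in WT) and Ide (lower in WT). The test was edgeR's quasi-likelihood test in 1 fit over all 17 libraries, and a gene is called changed at a Benjamini-Hochberg adjusted p under 0.05 over the 23062 genes. By that rule 5.90% of all genes were called, against 1 of the 9 here. By the threshold of the study's methods (log2 fold change past 0.5 in size, p under 0.01 before adjustment) 7.39% of all genes passed, and again 1 of the 9, Mme. Non-overlap was found for 9.52% of all genes and for 3 of the 9. The median log2 fold change of the 9 genes was 0.05, against -0.01 over all genes tested.

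None of the 9 genes was called in CgA-KO/hTau against hTau by edgeR's quasi-likelihood test, beside 9.72% of all genes, and 1 of the 9, Psen2, had an unadjusted p under 0.05, as did 27.8% of all genes. DESeq2 called none of the 9 either, beside 15.2% of all genes, and limma voom with sample weights called Psen2 alone, beside 22.7% of all genes. None passed the threshold of the methods, which 9.73% of all genes did, and none had genotypes that did not overlap, against 6.63% of all genes. The median log2 fold change of the 9 was -0.08, against 0.03 over all genes. Against WT, CgA-KO/hTau showed no called gene by edgeR, against 6.46% of all genes, and 4 of the 9 (Adam10, Mme, Psen2 and Aplp1) had an unadjusted p under 0.05, all lower in CgA-KO/hTau, where 21.7% of all genes had one in either direction. DESeq2 called these 4, beside 9.87% of all genes. One gene, Mme, passed the threshold of the methods, against 7.75% of all genes, none was free of overlap, against 3.60%, and the median log2 fold change was -0.25, against 0.01 over all genes. The 3 comparisons share libraries in pairs and are not independent of each other.

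App lies on chromosome 16 of GRCm38 (84949685 to 85173766, minus strand) and is overlapped by antisense genes and a pseudogene. Its level was 1750.0, 1581, 1471, 1474 and 1639 CPM in WT replicates 1 to 5. In the 6 hTau libraries it was 1449 at the lowest, 1508 at the median and 1777 CPM at the highest. The 6 CgA-KO/hTau libraries fell apart into 903, 1085 and 828 CPM in replicates 1 to 3 and 1669, 1854 and 1603 CPM in replicates 4 to 6. WT and hTau thus lay in the same range, while the 3 low CgA-KO/hTau libraries were under every other library and the other 3 were inside or above that range. The coefficient of variation was 7.43% in WT, 9.12% in hTau and 33.1% in CgA-KO/hTau. The log2 fold change was 0.01 (SE 0.18) in WT against hTau, -0.24 (SE 0.17) in CgA-KO/hTau against hTau and -0.26 (SE 0.18) in CgA-KO/hTau against WT, and edgeR gave adjusted p-values of 0.981, 0.367 and 0.438.

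Aplp2 (chromosome 9, 31149557 to 31211815, minus strand), which encodes the widely expressed relative of App, had the same division of the CgA-KO/hTau libraries. Its level was 656, 558, 599, 694 and 583 CPM in WT, and 562, 611 and 697 CPM (lowest, median, highest) in hTau. In CgA-KO/hTau it was 413, 498 and 421 CPM in replicates 1 to 3 and 652, 749 and 836 CPM in replicates 4 to 6. The 3 low libraries were below all others and replicates 5 and 6 were above all others, and the group's coefficient of variation was 29.9%, against 9.03% in WT and 8.76% in hTau. Its log2 fold changes were -0.03 (SE 0.16), -0.08 (SE 0.15) and -0.06 (SE 0.16) in the 3 comparisons in the order given for App, with edgeR adjusted p-values of 0.956, 0.773 and 0.893. Aplp1 (chromosome 7, 30434982 to 30445535, minus strand), the relative made mainly in neurons, was steadier. It was at 1035, 1069.8, 1059.8, 942 and 1215 CPM in WT, 943, 954 and 997 CPM (lowest, median, highest) in hTau, and 765, 886 and 1013 CPM in CgA-KO/hTau. The hTau libraries were within 1.06-fold of each other, and the 3 lowest levels of all 17 libraries were CgA-KO/hTau replicates 1 to 3. Aplp1 had a log2 fold change of 0.15 (SE 0.09) in WT against hTau, -0.10 (SE 0.09) in CgA-KO/hTau against hTau and -0.25 (SE 0.09) in CgA-KO/hTau against WT, with edgeR adjusted p-values of 0.366, 0.501 and 0.115.

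The division of App and Aplp2 followed the libraries with and without Ddx3y, and the fits within each class are given here for that reason. The p-values of these fits and of the interaction rest on the same levels that showed the division. They are not independent support for it. Among the 9 libraries with Ddx3y, 5 of the 9 genes were lower in CgA-KO/hTau than in hTau, where 31.1% of all genes were called in either direction. App fell by 0.82 on the log2 scale (SE 0.12, edgeR adjusted p = 0.00153), Aplp2 by 0.54 (SE 0.12, 0.00871), Psen2 by 0.46 (SE 0.15, 0.0473), Ncstn by 0.39 (SE 0.11, 0.0271) and Aplp1 by 0.22 (SE 0.07, 0.045). In the same class 5 of the 9 were lower in CgA-KO/hTau than in WT, where 20.7% of all genes were called. They were App (-0.76, SE 0.12), Psen2 (-0.50, SE 0.15), Aplp2 (-0.43, SE 0.12), Aplp1 (-0.36, SE 0.07) and Adam10 (-0.33, SE 0.08), with edgeR adjusted p-values of 0.00322, 0.0445, 0.0295, 0.00953 and 0.0242. None of the 9 was called in WT against hTau in this class (0.592% of all genes).

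Among the 8 libraries without Ddx3y none of the 9 genes was called in any of the comparisons, while 5.81% of all genes were called in WT against hTau, 0.806% in CgA-KO/hTau against hTau and 3.05% in CgA-KO/hTau against WT. In that class App stood in CgA-KO/hTau against hTau at a log2 fold change of 0.21 (SE 0.10) and Aplp2 at 0.28 (SE 0.12), with edgeR adjusted p-values of 0.391 and 0.346. The difference between the classes was tested as an interaction in 1 edgeR fit over all libraries. For CgA-KO/hTau against hTau 2 of the 9 genes passed, against 11.7% of all genes, and they were App (-1.07, SE 0.15, adjusted p = 0.00113) and Aplp2 (-0.85, SE 0.17, adjusted p = 0.00623). For CgA-KO/hTau against WT the same 2 passed, against 5.47% of all genes, with App at -0.90 (SE 0.16, adjusted p = 0.00834) and Aplp2 at -0.67 (SE 0.18, adjusted p = 0.0453) by edgeR. For WT against hTau none of the 9 passed by edgeR, against 0.0564% of all genes, and Bace1 alone had an unadjusted p under 0.05, as did 10.1% of all genes. The hTau libraries without Ddx3y (replicates 4 to 6) were near-identical, with a coefficient of variation of 0.608% for App. CgA-KO/hTau replicates 1 and 3 were also taken as near-identical. They differed in App (903 and 828 CPM) and in Bace1 (51.9 and 95.0 CPM). Counted as separate samples, these libraries of hTau and CgA-KO/hTau may make the SEs given here too small. With them summed, the fit over all libraries called 0.710% of all genes in CgA-KO/hTau against hTau, against 9.72% unsummed. In CgA-KO/hTau the class with Ddx3y is also the class with the high mitochondrial share and the high oligodendrocyte markers, and these cannot be told apart. Markers of astrocytes and of endothelial cells divided the CgA-KO/hTau libraries in the same way. The 6 astrocyte markers summed to 3798 to 6019 CPM in replicates 1 to 3 and 1041 to 3189 CPM in replicates 4 to 6, beside 1009.7 to 3383 CPM in WT and 929 to 4777 CPM in hTau. The 5 endothelial markers summed to 183 to 204 CPM and 142 to 147 CPM, beside 129 to 166 CPM in WT and 132 to 186 CPM in hTau. All of these markers were above 1 CPM in every library, and their part in the result was not tested. Without those 3 libraries, in a fit chosen after seeing the data, the log2 fold change of App in CgA-KO/hTau against hTau was 0.11 and that of Aplp2 was 0.23, and edgeR called neither, beside 1.46% of all genes.

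**Figure D2:**
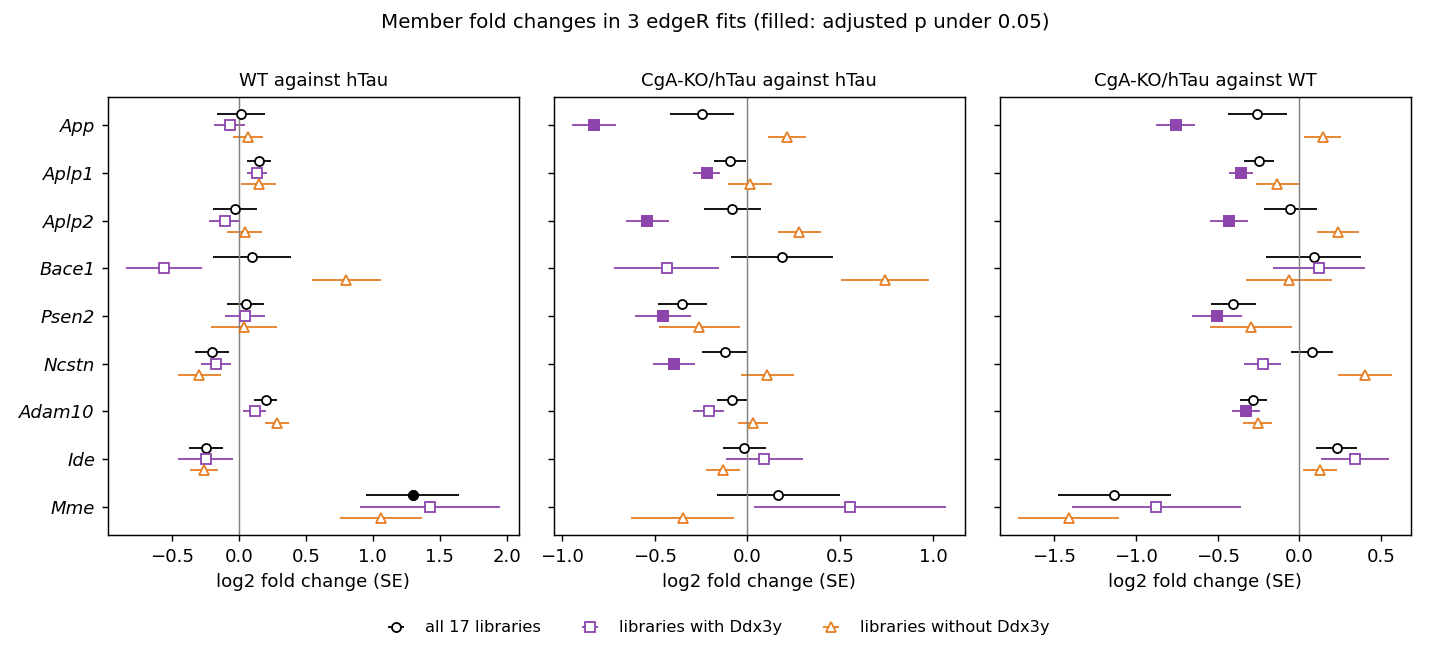
Log2 fold change with its standard error for the 9 genes in the 3 comparisons (panels), from edgeR fits to all 17 libraries (circles), to the libraries with Ddx3y (squares) and to those without (triangles). Filled symbols have an adjusted p under 0.05. App and Aplp2 in CgA-KO/hTau against hTau lie at -0.82 and -0.54 with Ddx3y and at 0.21 and 0.28 without.

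The gene whose level was most like that of App over the 17 libraries was Syp, which encodes the synaptic vesicle protein synaptophysin (Pearson r = 0.965 of log2(CPM + 1)), followed by Ctdp1 (r = 0.964). Syp was at 786 to 909 CPM in CgA-KO/hTau replicates 1 to 3 and at 1358 CPM or more in the other 14 libraries. Over those 14 libraries r was 0.704 for Syp and 0.713 for Ctdp1, so that much of the likeness rested on the 3 libraries that stood apart. For Aplp2 the most alike were Cap2 (r = 0.955, and 0.887 over the 14) and Serinc3 (0.947 and 0.847), and for Aplp1 they were Pnma8b (0.980 and 0.950) and Sf3b3 (0.961 and 0.905). These correlations run over libraries that differ in depth and in the levels of cell type markers. In bulk tissue, fewer cells of a type and less RNA per cell cannot be told apart. The 6 markers of cortical excitatory neurons, summed, were at 1024 to 1596 CPM in CgA-KO/hTau replicates 1 to 3 and 1775 to 1954 CPM in replicates 4 to 6. They were at 1617 to 2031 CPM in hTau and 1179 to 2544 CPM in WT, where replicates 3 and 5 held 1342 and 1179 CPM of these markers beside 1471 and 1639 CPM of App. WT replicates 3 and 5 also had the highest summed levels of striatal projection neuron markers of all libraries, 3094 and 3063 CPM. Replicate 5 was besides the library with choroid plexus markers at 1091 CPM. The 6 markers of inhibitory neurons were at 631 to 709.6 CPM in CgA-KO/hTau replicates 1 to 3 and at 980.2 to 1013 CPM in replicates 4 to 6, all below the 1094 to 1471 CPM of WT and the 1127 to 1307 CPM of hTau. The part of tissue composition, depth and RNA quality in the App and Aplp2 levels was not tested.

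**Figure D3:**
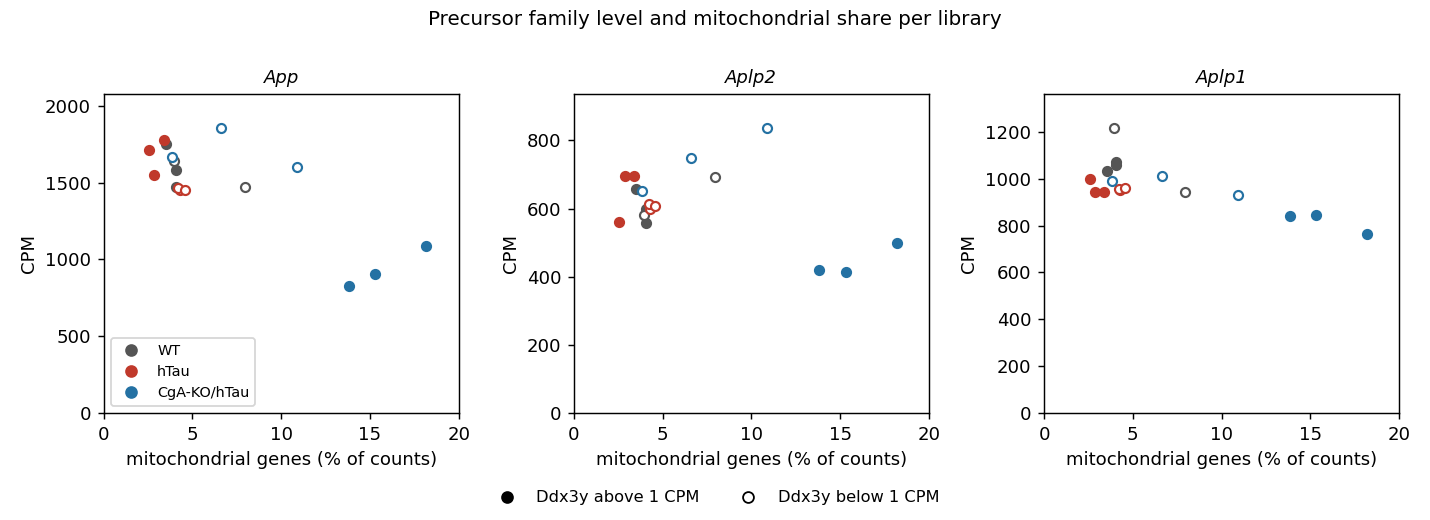
Level of App, Aplp2 and Aplp1 in CPM (vertical axes from 0) against the percentage of a library's counts in mitochondrial genes, 1 point a library, coloured by genotype and filled where Ddx3y was above 1 CPM. The 3 libraries at 13.8% to 18.2% have the lowest levels of all 3 genes, while the CgA-KO/hTau library at 10.9% has App at 1603 CPM and Aplp2 at 836 CPM.

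Adam10, the main alpha-secretase of neurons (chromosome 9, 70678997 to 70780229, plus strand), was at 122, 128, 131, 149 and 139 CPM in WT. In hTau it was at 114, 116 and 119 CPM (lowest, median, highest), and in CgA-KO/hTau at 90.6, 112 and 122 CPM. Every WT library was above every hTau library, and the 6 hTau libraries were within 1.05-fold of each other. The 3 lowest CgA-KO/hTau levels, 90.6, 108 and 102 CPM, were again those of replicates 1 to 3. The log2 fold change was 0.20 (SE 0.08) in WT against hTau and did not pass over all genes (edgeR adjusted p = 0.176). For CgA-KO/hTau against hTau it was -0.08 (SE 0.08, edgeR adjusted p = 0.527), and in CgA-KO/hTau against WT it was -0.28 (SE 0.08, edgeR adjusted p = 0.0507). The last value sat at the threshold and was called by 7 of the 15 alternative fits that left out no single library, with an adjusted p from 0.00177 to 0.263 over these 15. Those 7 fits called 6.26% to 21.6% of all genes. Of the 17 fits that left out 1 library, 3 called it, with an edgeR adjusted p from 0.0296 to 0.128 over these 17. Those 3 called 7.46% to 8.45% of all genes.

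Bace1 (chromosome 9, 45838580 to 45864399, plus strand) varied within each genotype more than it differed between genotypes. WT held 82.1, 72.5, 70.0, 140.2 and 148 CPM, hTau 138, 124, 68.9, 60.6, 116 and 66.7 CPM, and CgA-KO/hTau 51.9, 95.3, 95.0, 154, 127 and 130.3 CPM, each in the order of the replicates. Within WT and within hTau the levels thus fell into a low and a high set, and the coefficient of variation was 37.4%, 35.6% and 32.9% in the 3 genotypes. The high libraries were those without Ddx3y in WT, and were of both classes in hTau. In CgA-KO/hTau the libraries without Ddx3y (127 to 154 CPM) were all above those with it (51.9 to 95.3 CPM). The interaction for Bace1 in CgA-KO/hTau against hTau was -1.21 (SE 0.40, edgeR adjusted p = 0.064). Between genotypes its log2 fold change was 0.10 (SE 0.29), 0.19 (SE 0.28) and 0.09 (SE 0.29) in the 3 comparisons, with edgeR adjusted p-values of 0.892, 0.699 and 0.905. Bace1 also differed between hTau replicates 4 and 5, which were close to each other in nearly all genes. It was 1.92-fold higher in replicate 5 (a log2 ratio of 0.94), while the median absolute log2 ratio of the 7516 genes with a mean above 20 CPM was 0.05, and 88 of them (1.17%) were as far from 0. The 6 astrocyte markers, all above 1 CPM in every library, divided the libraries partly as Bace1 did. They summed to 1009.7 and 1816 CPM in the high WT replicates 4 and 5, against 2288 to 3383 CPM in the other 3. In CgA-KO/hTau they were at 1041 and 1106 CPM in replicates 5 and 6 and at 3189 to 6019 CPM in the other 4, of which replicate 4 had the highest Bace1 level of that genotype. In hTau they were at 929, 2977 and 4006 CPM in replicates 1, 2 and 5, where Bace1 was high, and at 4152 to 4777 CPM in replicates 3, 4 and 6. Their part in the Bace1 levels was not tested.

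Bace1 overlaps Rnf214 and Gm16536 and Gm49338 on the opposite strand, and whether the counting used strand is not given in the sources used here, so its reads and theirs may not be told apart. Rnf214 was at 48.4, 43.4, 42.4, 81.9 and 47.5 CPM in WT and at 34.2, 41.9, 33.9, 36.7, 60.2 and 58.1 CPM in CgA-KO/hTau, in the order of the replicates. It was thus highest in WT replicate 4 and CgA-KO/hTau replicates 5 and 6, which were among the libraries high in Bace1. In hTau it was at 35.9 to 45.6 CPM, with 35.9 CPM in replicate 4 and 39.7 CPM in replicate 5. Gm16536 was at 14.8 to 19.1 CPM and Gm49338 at 19.4 to 24.1 CPM over the hTau libraries. The genes most like Bace1 were Gnptab (r = 0.751) and Emd (r = 0.745), the lowest such values of the 9 genes. On a per kb basis the log2 ratio of Bace1 to Adam10 was -0.86 ± 0.45 in WT (SD, n = 5), -0.76 ± 0.51 in hTau (SD, n = 6) and -0.49 ± 0.40 in CgA-KO/hTau (SD, n = 6), so the genotypes overlapped widely.

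The 2 gamma-secretase genes differed in how their CgA-KO/hTau libraries lay. Psen2 (chromosome 1, 180227004 to 180263438, minus strand), a catalytic subunit and the shallowest of the 9 by count, was at 11.1, 8.53, 9.69, 7.98 and 11.4 CPM in WT. It was at 8.47, 9.41 and 10.3 CPM (lowest, median, highest) in hTau and at 5.84, 7.32 and 8.99 CPM in CgA-KO/hTau. Of the CgA-KO/hTau libraries, replicates 1, 2, 3 and 6 were below every WT and hTau library, and the other 2 were inside their range. The log2 fold change was 0.05 (SE 0.14) in WT against hTau, -0.35 (SE 0.13) in CgA-KO/hTau against hTau and -0.40 (SE 0.14) in CgA-KO/hTau against WT, with edgeR adjusted p-values of 0.873, 0.0926 and 0.0893. Neither passed over all genes.

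Ncstn (chromosome 1, 172066013 to 172082795, minus strand, overlapped by Copa on the other strand), the gene of the substrate-receiving subunit nicastrin, was at 59.7, 49.7, 54.5, 42.4 and 54.5 CPM in WT. In hTau it was at 54.4, 59.0 and 70.3 CPM (lowest, median, highest) and in CgA-KO/hTau at 44.7, 47.0 and 47.3 CPM in replicates 1 to 3 and 64.6, 72.5 and 54.5 CPM in replicates 4 to 6. The first 3 CgA-KO/hTau libraries were below every hTau library but inside the WT range. Its log2 fold changes were -0.20 (SE 0.13), -0.12 (SE 0.12) and 0.08 (SE 0.13) in the 3 comparisons, with edgeR adjusted p-values of 0.392, 0.536 and 0.786.

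Ide (chromosome 19, 37268743 to 37337852, minus strand) encodes a soluble protease that clears insulin and amyloid-beta. It was at 47.8, 49.4, 51.0, 48.4 and 52.1 CPM in WT and at 56.6, 59.2 and 60.5 CPM (lowest, median, highest) in hTau. These genotypes did not overlap, and their coefficients of variation were 3.63% and 2.54%. The difference was a log2 fold change of -0.24 (SE 0.12) with an edgeR adjusted p of 0.276, where the SE comes from a spread estimated over all 3 genotypes. In CgA-KO/hTau it was at 49.5, 88.2, 48.1, 54.0, 53.2 and 56.4 CPM in replicates 1 to 6, so that replicate 2 stood far above the other 5. With only WT and hTau in the fit the log2 fold change was -0.24 and the edgeR adjusted p 0.0243, beside 10.5% of all genes called. Without CgA-KO/hTau replicate 2 the values were -0.24 and 0.0434, beside 5.93%. Ide was called in 2 of the 15 alternative fits that left out no single library, and in 1 of the 17 that left out 1. Over these 15 the log2 fold change was -0.27 to -0.14 and the adjusted p 0.0138 to 0.701. Ide differed by -0.02 (SE 0.12) in CgA-KO/hTau against hTau and by 0.23 (SE 0.12) in CgA-KO/hTau against WT on the log2 scale, with edgeR adjusted p-values of 0.949 and 0.307. The most alike by Pearson r, Gpr15 (0.871) and ENSMUSG00000121495 (0.849), were at most 0.598 and 1.38 CPM in any library and fell to 0.555 and 0.586 over the 14 libraries without CgA-KO/hTau replicates 1 to 3.

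Mme (chromosome 3, 63241537 to 63386030, plus strand) encodes neprilysin, a membrane peptidase that degrades amyloid-beta and neuropeptides such as enkephalins, and had the largest fold change of the 9 genes. It was at 21.2, 25.3, 49.1, 22.9 and 28.1 CPM in WT. In hTau it was at 6.52, 13.5 and 15.8 CPM (lowest, median, highest), and in CgA-KO/hTau at 22.8, 6.16, 22.7, 10.5, 10.7 and 7.45 CPM in replicates 1 to 6. Every WT library was above every hTau library, and CgA-KO/hTau replicates 1 and 3 were inside the WT range while the other 4 were inside or just below the hTau range. Mme was higher in WT than in hTau by 1.30 on the log2 scale (SE 0.35, edgeR adjusted p = 0.0324). It did not differ at the threshold in CgA-KO/hTau against hTau (0.17, SE 0.33, edgeR adjusted p = 0.783) or against WT (-1.13, SE 0.35, edgeR adjusted p = 0.058). Without CgA-KO/hTau replicates 1 to 3, in a fit chosen after seeing the data, the value against WT was -1.62 (edgeR adjusted p = 0.0154). That fit called 4.16% of all genes. In it the striatal markers given below separate CgA-KO/hTau (186 to 215 CPM) from WT (1070 to 3094 CPM). Genotype and marker level cannot be told apart there.

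Mme was high in the libraries with high levels of striatal projection neuron markers, and neprilysin is known to be abundant in the striatum. The part of tissue composition in the Mme levels was not tested. The 8 markers of striatal projection neurons summed to 1070 to 3094 CPM in WT (all 8 above 1 CPM in every library) and 151 to 207 CPM in hTau (7 of 8 above 1 CPM in every library). In CgA-KO/hTau they summed to 1700.1, 403, 1712, 186, 209 and 215 CPM in replicates 1 to 6, and the replicates at 1700.1 and 1712 CPM were those with Mme at 22.8 and 22.7 CPM. Drd2, the dopamine receptor that defines one type of these cells, was at 33.4 to 132 CPM in WT and 0.601 to 1.31 CPM in hTau. Among all genes tested the most like Mme were Patj (r = 0.902 over 17 libraries, 0.927 over 14) and Chat, the choline acetyltransferase of cholinergic neurons (r = 0.901 and 0.897). Chat was at 2.69 to 10.0 CPM in WT, at 0.216 to 0.475 CPM in hTau, at 4.17 and 3.86 CPM in CgA-KO/hTau replicates 1 and 3, and at most 0.387 CPM in the other 4. Patj, which is not among the striatal markers, was at 6.03 to 10.9 CPM in WT and 3.79 to 5.96 CPM in hTau. In CgA-KO/hTau it was at 6.99 and 7.06 CPM in replicates 1 and 3 and at most 5.16 CPM in the other 4.

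**Figure D4:**
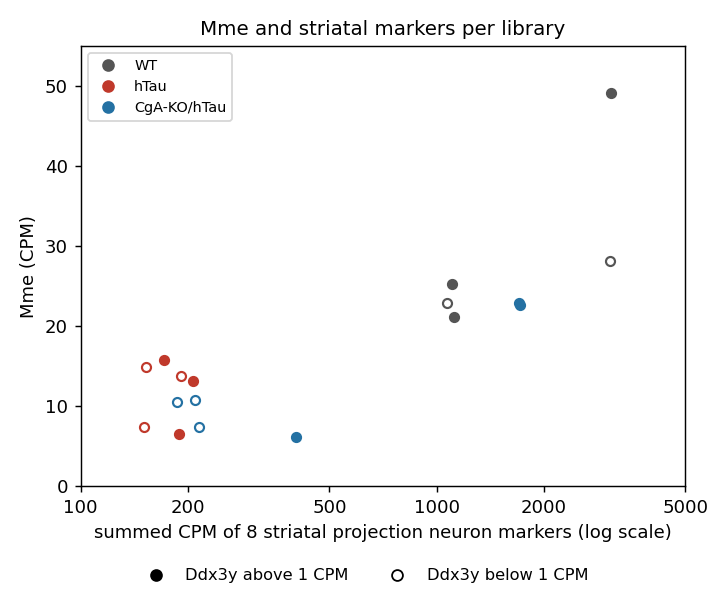
Level of Mme in CPM (vertical axis from 0) against the summed CPM of 8 striatal projection neuron markers (horizontal log axis), 1 point a library. The WT libraries and CgA-KO/hTau replicates 1 and 3, whose points nearly coincide, lie at 1070 to 3094 CPM of markers and 21.2 to 49.1 CPM of Mme, and the other 10 libraries lie at 151 to 403 CPM and 6.16 to 15.8 CPM.

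With the mean of these markers as a covariate, the log2 fold change of Mme in WT against hTau was -0.02 (edgeR adjusted p = 0.987). The markers separate WT from hTau completely, so within this comparison the genotype and the marker level cannot be told apart. The call on Mme was also lost within the libraries with Ddx3y (1.43, edgeR adjusted p = 0.228) and within those without (1.06, edgeR adjusted p = 0.093). It was lost too where libraries taken as near-identical were summed to 1 sample each (1.31, edgeR adjusted p = 0.0902). These were hTau replicates 4 to 6, and CgA-KO/hTau replicates 1 and 3. Over the fits that left out 1 library each, the log2 fold change was 1.03 to 1.40 and the edgeR adjusted p 0.0237 to 0.0931, with the call kept in 11 of 17. The call was lost without WT replicate 3 (1.03, edgeR adjusted p = 0.0931) or 5, or without hTau replicate 1, 3, 5 or 6. WT replicate 5 is the library with choroid plexus markers at 1091 CPM, and the part of that tissue was not tested.

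Around the 9 genes, 63 other genes of the pathway were followed, of which 62 were tested. In WT against hTau 6 of the 62 were called (2 higher and 4 lower in WT), beside 5.90% of all genes, and their median log2 fold change was -0.06. The count was 1 of 62 with near-identical libraries summed (1.92% of all genes), 3 with the replicate number as a block (2.86%) and 0 within the libraries with Ddx3y (0.592%). Sez6, a neuronal membrane protein shed by BACE1, was higher in WT by 1.21 (SE 0.19, edgeR adjusted p = 0.0012). Tspan5, a tetraspanin that binds ADAM10, was lower in WT by a log2 fold change of -1.01 (SE 0.22, edgeR adjusted p = 0.011), and Tspan17, of the same group, by -0.75 (SE 0.20, edgeR adjusted p = 0.0358). Lrp1, an endocytic receptor that binds APP, was at -0.39 (SE 0.11, edgeR adjusted p = 0.0372) and Apba1, an adaptor that binds the APP tail, at -0.31 (SE 0.08, edgeR adjusted p = 0.0265).

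Of the 62, 10 were called in CgA-KO/hTau against hTau (1 higher and 9 lower), beside 9.72% of all genes. Tspan5 was lower (log2 fold change -1.65, SE 0.21, edgeR adjusted p = 0.000291), and Tspan15, another tetraspanin partner of ADAM10, was the 1 that was higher (0.58, SE 0.16, edgeR adjusted p = 0.033). Apba2 fell by 0.50 (SE 0.13), Ctsb, the lysosomal protease cathepsin B, by 0.49 (SE 0.12) and Lrp1 by 0.39 (SE 0.10), with edgeR adjusted p-values of 0.0213, 0.0215 and 0.023. Without CgA-KO/hTau replicates 1 to 3 the count was 2 of 62, beside 1.46% of all genes. In the fit over all libraries the 4 other gamma-secretase genes, Psenen, Aph1a, Aph1b and Aph1c, were called by edgeR in none of the comparisons, and 1 of them had an unadjusted p under 0.05, in CgA-KO/hTau against hTau (27.8% of all genes). Within the libraries with Ddx3y, 1 of these 4 was called lower in CgA-KO/hTau than in hTau, beside 31.1% of all genes. Against WT, 3 of the 62 were called, beside 6.46% of all genes. Sez6 was lower by a log2 fold change of -0.91 (SE 0.19), Tspan33 by -0.62 (SE 0.16) and Apba1 was higher by 0.29 (SE 0.08), with edgeR adjusted p-values of 0.00973, 0.027 and 0.0376.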

How the data were processed

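RNA from prefrontal cortex of 5 WT, 6 hTau and 6 CgA-KO/hTau mice was sequenced. Per the study's methods and the submitters' processing notes, the authors checked reads with FastQC, trimmed them with Trimmomatic 0.39, aligned them to mm10 with STAR 2.7.10b, quantified them with StringTie 1.3.6 and converted the result with prepDE to the deposited table of whole-number counts per gene, without normalization. Low counts peaked at 3 and 6 in all 17 libraries, so 1 fragment may stand for more than 1 count, which was not tested, and the tests rest on the spread between replicates. Annotation release and strand setting are not given in the sources used here.

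Libraries were grouped by labelled genotype. edgeR 4.0.16 in R 4.3.3 was used with TMM, filterByExpr and a quasi-likelihood fit of 1 mean per genotype to all libraries, with Benjamini-Hochberg adjustment over 23062 genes. It was tested on simulated data. Alternatives used DESeq2 1.42.0, limma 3.58.1, other filters and covariates, and libraries left out. The members and gene lists were chosen with earlier results of these data known. Genes named are the 9 members, per comparison the up to 5 pathway genes of smallest p among those called, the 2 genes most correlated with each member over all libraries, and Chga. Outside this rule, Ddx3y, Xist, Drd2, the genes overlapping Bace1 and Ncstn, and the 4 other gamma-secretase genes are named, chosen after values were seen. Other pathway genes are given by count. Marker lists were written by hand, and levels are given for some of them. Coordinates and transcript lengths are from GENCODE M21 (GRCm38), matched by identifier without version, and start windows from RefSeq (GRCm38.p6). Figures used Python 3.11.15 and matplotlib 3.10.9.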

Additional observations from a re-analysis of the deposited data

Results flagged for a closer look

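In 27 sets of libraries (9 genes in 3 genotypes), 4 had 1 library far from the others of its genotype by Dixon's test at 95%, where chance gives about 1 in 20. They were Aplp1 at 997 CPM in hTau replicate 1 (the other 5 at 943 to 959.7 CPM), Ncstn at 70.3 CPM in hTau replicate 3 (others 54.4 to 59.8 CPM), Ide at 88.2 CPM in CgA-KO/hTau replicate 2 (others 48.1 to 56.4 CPM) and Mme at 49.1 CPM in WT replicate 3 (others 21.2 to 28.1 CPM).

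App and Aplp2 had different log2 fold changes in the libraries with Ddx3y above 1 CPM and those without, by the interaction in the edgeR fit. Their levels had already shown this split, and near-identical libraries were counted as separate samples. The log2 fold change with minus that without was -1.07 for App and -0.85 for Aplp2 in CgA-KO/hTau against hTau, and -0.90 for App and -0.67 for Aplp2 in CgA-KO/hTau against WT. In CgA-KO/hTau the Ddx3y class cannot be told apart from the mitochondrial share of the counts, which was 13.8% to 18.2% with Ddx3y and 3.84% to 10.9% without.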

How the results depend on the processing

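The signs of small log2 fold changes depended on the libraries and covariates used. Without CgA-KO/hTau replicates 1 to 3 together (chosen after seeing the data), CgA-KO/hTau against hTau gave App 0.11, Aplp1 0.017, Aplp2 0.23, Ncstn 0.079, Adam10 0.026 and Mme -0.33, and against WT App 0.11 and Aplp2 0.27. Within the libraries without Ddx3y it gave App 0.21, Aplp1 0.014, Aplp2 0.28, Ncstn 0.11, Adam10 0.029 and Mme -0.35 against hTau and App 0.14, Aplp2 0.23 and Bace1 -0.066 against WT, and WT against hTau gave Aplp2 0.043. Within those with Ddx3y, WT against hTau gave App -0.067 and Bace1 -0.56, and CgA-KO/hTau gave Bace1 -0.44 and Ide 0.091 against hTau and Ncstn -0.22 against WT. With the striatal marker covariate, WT against hTau gave Aplp2 0.68, Ncstn 0.12 and Mme -0.016, and CgA-KO/hTau gave App 0.032, Aplp2 0.18, Ncstn 0.0013, Adam10 0.020, Ide 0.027 and Mme -0.51 against hTau and Bace1 -0.37 and Ncstn -0.12 against WT. With near-identical libraries summed, WT against hTau gave App -0.035 and Bace1 -0.0052, and CgA-KO/hTau gave Aplp2 0.033 against WT and Ide 0.033 and Mme -0.038 against hTau. In CgA-KO/hTau against hTau, DESeq2 gave Ide 0.0052, its size factors in edgeR Ide 0.013 and at least 10 counts in every library Ide 0.047. limma voom gave Ncstn -0.023 in CgA-KO/hTau against WT, and no filter on low counts gave App -0.0098 in WT against hTau. Apart from Mme, called in WT against hTau in the fit reported, and Aplp2 at 0.68 with the striatal covariate, no value that changed sign was called on either side. The cause was not tested.

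Leaving out 1 library at a time changed the sign in WT against hTau of App (-0.026 to 0.056), Aplp2 (-0.073 to 0.0091), Bace1 (-0.073 to 0.23) and Psen2 (-0.0098 to 0.11), in CgA-KO/hTau against hTau of Aplp2 (-0.20 to 0.0081), Ide (-0.17 to 0.042) and Mme (-0.047 to 0.32), and against WT of Aplp2 (-0.18 to 0.032), Bace1 (-0.032 to 0.26) and Ncstn (-0.016 to 0.13), with none of these called. It gave 0 to 2 called members in WT against hTau, 0 to 1 in CgA-KO/hTau against hTau and 0 to 2 against WT, and 2 to 7, 1 to 15 and 1 to 7 called pathway genes, where 2.79% to 7.21%, 4.46% to 17.3% and 2.76% to 8.89% of all genes were called.

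The counts of called genes are given with the share of all genes called in that fit and comparison. In CgA-KO/hTau against WT, called members were 0 in the fit reported (6.46% of all genes), 5 with Ddx3y only (20.7%), 4 by DESeq2 (9.87%) and with the striatal covariate (21.6%), 2 by limma voom (10.7%), and 1 with the Ddx3y level as a covariate (7.66%), with at least 10 counts in every library (9.36%), with mitochondrial genes left out (6.26%) or without CgA-KO/hTau replicates 1 to 3 (4.16%). Called pathway genes were 3, and 18 with Ddx3y only or the striatal covariate, 8 by limma voom, 2 with no filter (2.54%), 1 without Ddx3y (3.05%), with libraries summed (2.55%) or with the replicate block (2.66%), and 0 with only the compared genotypes (1.30%). Against hTau, called members were 0 (9.72%), 5 with Ddx3y only (31.1%) and 1 by limma voom (22.7%). Called pathway genes were 10, and 25 with Ddx3y only, 22 by limma voom, 5 with no filter (3.92%), 4 with the striatal covariate (5.23%), 2 without CgA-KO/hTau replicates 1 to 3 (1.46%), 1 with libraries summed (0.710%) or the replicate block (2.84%) and 0 without Ddx3y (0.806%). In WT against hTau, called members were 1 (5.90%), 3 with the striatal covariate (16.4%), 2 with only the compared genotypes (10.5%) or without CgA-KO/hTau replicates 1 to 3 (9.21%), and 0 with Ddx3y only (0.592%), without Ddx3y (5.81%), with libraries summed (1.92%) or with the replicate block (2.86%). Called pathway genes were 6, and 13 with the striatal covariate, 11 with only the compared genotypes or without CgA-KO/hTau replicates 1 to 3, 10 by limma voom (17.2%), 3 with no filter (2.64%) or with the replicate block, 1 with libraries summed and 0 with Ddx3y only.

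With the replicate block, Mme in WT against hTau was 1.19 (edgeR adjusted p = 0.103) and Aplp2 0.019. Same-numbered libraries deviated together with correlations of -0.23 to 0.44 across genes, so the numbers do not pair them. Psen2, with 70 counts in the shallowest library, was the least deeply covered of the 9.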
